A study of Homo sapiens with 18 samples.

Results

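The libraries numbered 3 were compared with the libraries numbered 1 in mRNA sequencing of 3 head and neck squamous cell carcinoma (HNSCC) lines. The members were chosen by the number in the sample titles alone. They are 12 of the 18 libraries, 6 of replicate 3 and 6 of replicate 1. The 6 libraries of replicate 2 also entered the fits per line. They were kept apart only where the replicate difference was set against the HGF response of replicate 2. Detroit 562 was derived from a metastasis of a pharyngeal carcinoma, FaDu from a hypopharyngeal carcinoma and SCC-9 from a tongue carcinoma. In each line, control cells were left untreated and the HGF group received 50 ng/mL hepatocyte growth factor for 16 h by the sample records, while the series record gives 48 h. Each replicate number therefore holds 1 control and 1 HGF library of each line. All cells were seeded at 750000 per well of a 6-well plate, Detroit 562 and FaDu in MEM-alpha and SCC-9 in DMEM F12 with hydrocortisone, so line and medium cannot be told apart. The study's methods say that the experiment was repeated, but the labels do not say whether a number marks the same day in the 3 lines. The p-values measure the spread between these libraries. In the fits per line, this spread comes from how the control and HGF libraries of a run disagree. The p-values of those fits therefore do not measure how far culture runs spread. Differences that arose in culture, RNA isolation or library preparation cannot be told apart. A replicate difference below is replicate 3 minus replicate 1 on the log2 scale, given with its standard error.

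HGF is the ligand of the receptor tyrosine kinase MET, which signals through the RAS-ERK and PI3K pathways and is known for promoting growth, migration and invasion of carcinoma cells. Immediate early genes such as FOS and EGR1 are transcribed within minutes of serum, growth factor or handling stimuli, whereas Sprouty and DUSP genes encode feedback inhibitors of ERK signalling. Interferon-stimulated genes and NRF2 targets encode antiviral effectors and enzymes of the antioxidant and xenobiotic response, respectively.

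The 6 libraries of replicate 1 held 40247707 to 44003970 counts on genes and the 6 of replicate 3 held 35304770 to 42431562. Epithelial markers were strongly expressed in every library, with a summed level of 170820 to 566530 normalized counts over 9 genes. The 8 endothelial and leukocyte markers summed to 34.2 to 581 and the 8 fibroblast markers to 145 to 3992, the latter mostly COL1A1 and COL1A2, while the fibroblast surface gene THY1 and the leukocyte gene PTPRC stayed at or below 3.24 normalized counts. Normalized counts are counts scaled by the TMM method to a common library size, and they compare libraries, not genes. A pair of replicate 3 libraries held traces of FaDu transcripts. The summed level of 9 genes that were restricted to FaDu in replicates 1 and 2 reached 2.04% of the FaDu level in SCC-9 HGF replicate 3 and 0.391% in Detroit 562 HGF replicate 3, against 0.0247% to 0.205% in the other 10 libraries of these lines. The cancer-testis gene MAGEA4, for example, had 176 raw counts in SCC-9 HGF replicate 3, 21 in Detroit 562 HGF replicate 3, 17 in SCC-9 control replicate 3 and at most 5 in the others. Values of genes with far higher expression in FaDu can move with these traces, and some such genes are marked below.

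**Figure D1:**
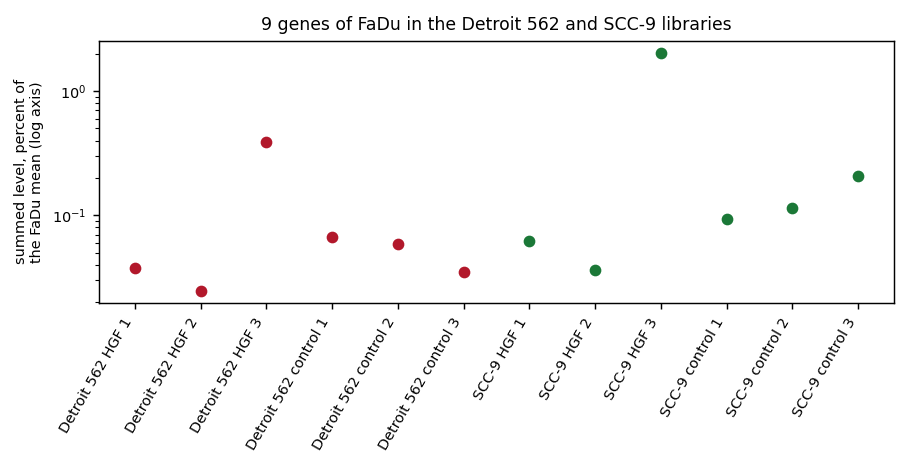
Summed level of the 9 FaDu-restricted genes in the 12 Detroit 562 and SCC-9 libraries, as percent of the FaDu level. SCC-9 HGF replicate 3 stands at 2.04% and Detroit 562 HGF replicate 3 at 0.391%, above the other 10 libraries.

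To determine how much of the transcriptome differed between the culture runs, replicate 3 was first compared with replicate 1 within each line. In Detroit 562, 2232 of 15475 genes were called (14.4% of those tested), 820 higher (5.3%) and 1412 lower (9.12%) in replicate 3. In FaDu, 1816 genes were called (11.7%), 1039 higher (6.71%) and 777 lower (5.02%). In SCC-9, 506 genes were called (3.27%), 316 higher (2.04%) and 190 lower (1.23%). Calls needed an adjusted p below 0.1 in edgeR's quasi-likelihood test and a difference of 0.4 or more in either direction on the log2 scale. The SCC-9 count depended on single libraries. It was 154 without control replicate 1, 152 without HGF replicate 1, 128 without control replicate 3 and 310 without HGF replicate 3, and the FaDu count was 1047 without HGF replicate 3.

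Control and HGF cells of the same run shifted together. Across 13158 genes with a mean of at least 50 normalized counts, the replicate difference of the control libraries correlated with that of the HGF libraries at r = 0.565 in Detroit 562 and 0.642 in FaDu, against 0.484 in SCC-9. Such correlations run across genes, which are no independent replicates. No gene passed edgeR's quasi-likelihood test of whether the replicate difference itself changed with HGF (0 of 15502 genes). In that test 78 genes had an unadjusted p below 0.05, and DESeq2 also called 0. The test fitted the lines together, so a replicate difference that varied between lines, as for 5203 of 15475 genes, added to its spread. It could therefore hardly call a gene, and the 0 calls do not show whether HGF changed the replicate difference.

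The immediate early genes FOS, FOSB, EGR1 and JUNB fell in Detroit 562 and FaDu and rose in SCC-9. FOS, a subunit of the AP-1 transcription factor, had 10510, 375 and 1260 normalized counts in Detroit 562 control replicates 1, 2 and 3 and 3969, 147 and 204 in the HGF replicates. Replicate 1 was therefore far above both other runs in each treatment. In FaDu, FOS had 9408, 1019 and 1339 in control and 6450, 1028 and 918 in HGF cells, again with replicate 1 standing apart. SCC-9 moved the other way, with 1354, 1279 and 2729 in control and 941, 1137 and 1906 in HGF cells, where replicate 3 was highest. The replicate difference was -3.48 ± 0.20 in Detroit 562 and -2.81 ± 0.19 in FaDu, against 1.01 ± 0.19 in SCC-9 (adjusted p = 2.4e-07, 7.6e-07 and 0.0070), and it differed between the lines (adjusted p = 1.0e-06).

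FOSB and EGR1 followed the same order. FOSB, a FOS paralog, differed by -3.28 ± 0.19 in Detroit 562 and -2.07 ± 0.15 in FaDu, against 1.49 ± 0.15 in SCC-9. EGR1, a zinc finger transcription factor, had 18060 and 15380 normalized counts in the control and HGF libraries of Detroit 562 replicate 1 and 5344 and 2340 in those of replicate 3. In SCC-9 it had 3940 and 2903 in replicate 1 and 7953 and 6207 in replicate 3, so the groups did not overlap in either line but lay in opposite order. EGR1 differed by -2.23 ± 0.15 in Detroit 562 and -1.35 ± 0.14 in FaDu, against 1.05 ± 0.14 in SCC-9. JUNB, another AP-1 subunit, differed by -0.55 ± 0.07, -0.82 ± 0.07 and 0.42 ± 0.07 in the same order, and all of these values passed the test.

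A stretch of the EGR1 promoter is shown because it holds a CArG box, the sequence bound by serum response factor, a known activator of immediate early genes. The sequence is from RefSeq (GRCh38.p14), chr5:138465371-138465430 on the plus strand. The capitals mark 1 of 2 matches to the CArG box, and the other stands in lower case near the start of the stretch.
EGR1: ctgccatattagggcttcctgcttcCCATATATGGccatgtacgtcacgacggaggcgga
Of the 16 genes in the list of ERK feedback and immediate early genes, 10 had a promoter entry of 250 bases before to 50 bases after the gene start, and 1 held a CArG box on either strand. Of all 35116 promoters, 1.29% did. A match in such a window is a description of the letters only.

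**Figure D2:**
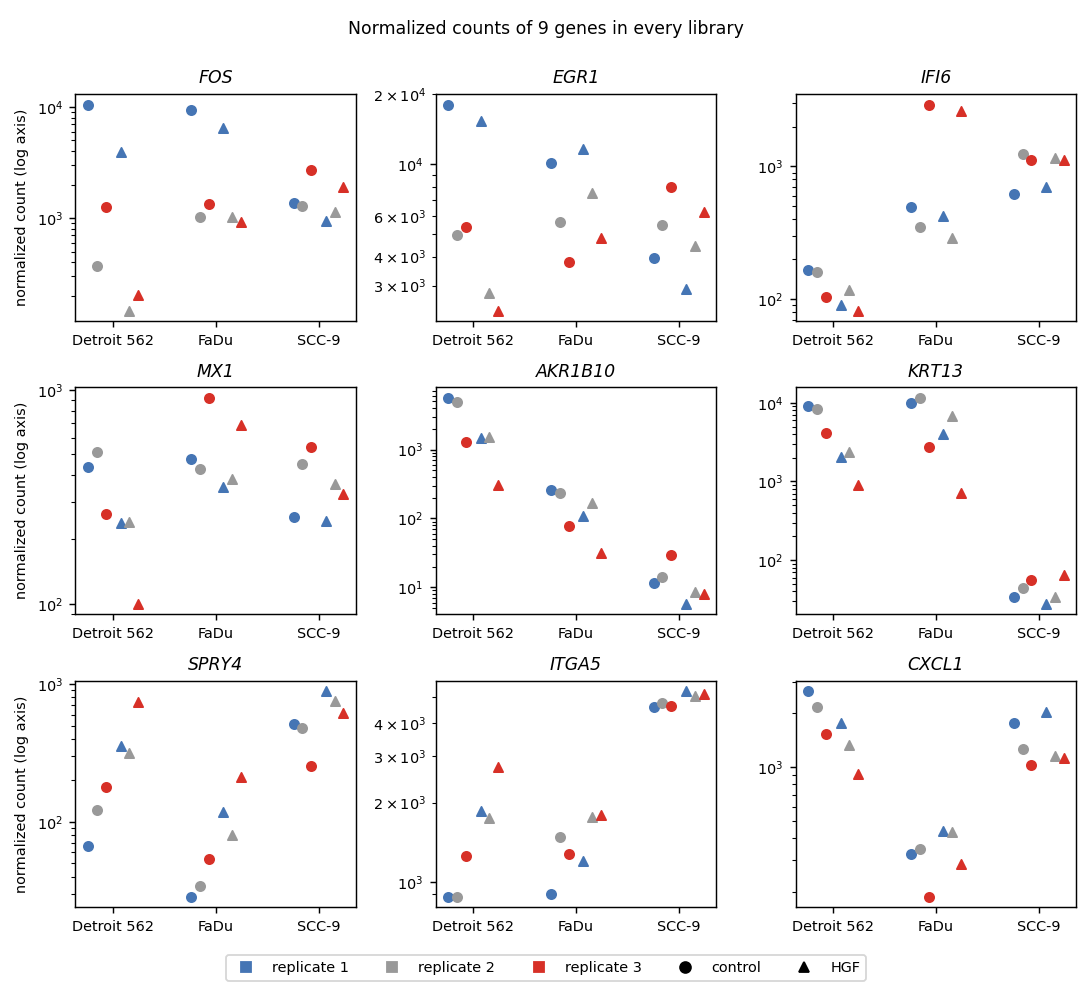
Normalized counts of 9 genes in each of the 18 libraries, on a logarithmic axis, with replicate 1 in blue, replicate 2 in grey and replicate 3 in red, circles for control and triangles for HGF. FOS is highest in replicate 1 in Detroit 562 (10510 in control) and FaDu (9408 in control) and highest in replicate 3 in SCC-9 (2729 in control).

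Several ERK feedback genes moved against the immediate early genes. SPRY4, an inhibitor of receptor tyrosine kinase signalling, had 67.1 and 357 normalized counts in the control and HGF libraries of Detroit 562 replicate 1 and 180 and 744 in those of replicate 3. Both replicate 3 values lay above the replicate 1 value of the same treatment. In SCC-9 it had 515 and 893 in replicate 1 and 254 and 614 in replicate 3, below in both treatments. The replicate difference of SPRY4 was 1.16 ± 0.20 in Detroit 562 and 0.85 ± 0.26 in FaDu, against -0.74 ± 0.17 in SCC-9, and all were called. PHLDA1, a pleckstrin homology-like protein, differed by 1.04 ± 0.16, 1.14 ± 0.19 and -0.55 ± 0.15, and the ERK phosphatase DUSP4 by 0.88 ± 0.14, 0.77 ± 0.18 and -0.45 ± 0.13, again called in each line.

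Over the list of 16 ERK feedback and immediate early genes, 7 were called higher and 4 lower in Detroit 562, 5 higher and 4 lower in FaDu, and 4 higher and 5 lower in SCC-9. Of all genes, 5.3% and 9.12%, 6.71% and 5.02%, and 2.04% and 1.23% were called in the same order. The median replicate difference was 0.46, 0.18 and -0.21. The replicate difference of all 16 genes differed between the lines, beside 33.6% of all genes. The SCC-9 count rested on single libraries, since leaving out any of its 4 libraries of these replicates gave 2 to 4 higher and 0 to 2 lower. In FaDu, 2 were higher without HGF replicate 3 and 3 without control replicate 1. The HGF comparison with the replicate number as a block uses the same libraries. In it, 11 of these genes were higher and 4 lower in Detroit 562, 9 and 0 in FaDu, against 7 and 0 in SCC-9. Over all genes, that comparison called 7.13% higher and 14.4% lower in Detroit 562. The shares were 2% and 3.6% in FaDu, against 0.562% and 1.41% in SCC-9.

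Most interferon-stimulated genes rose in FaDu, and 9 of 20 rose in SCC-9. In FaDu, IFI6, an interferon-induced mitochondrial protein, had 496 and 420 normalized counts in the control and HGF libraries of replicate 1, 347 and 288 in replicate 2 and 2929 and 2610 in replicate 3. Replicate 3 thus stood apart from both other runs. IFI27 had 3381 and 3105 in replicate 1, 1743 and 1263 in replicate 2 and 16290 and 14500 in replicate 3 of this line. The replicate difference in FaDu was 2.60 ± 0.09 for IFI6 and 2.25 ± 0.09 for IFI27 (adjusted p = 7.2e-10 and 5.2e-09). In SCC-9, IFI6 differed by 0.75 ± 0.09 and IFI27 by 0.71 ± 0.10, with replicate 2 close to replicate 3 for both genes (1251 and 1164 for IFI6, 2057 and 2072 for IFI27).

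Detroit 562 moved in the opposite direction in part of these genes. OAS2, a sensor of double-stranded RNA, had 232 and 87.3 normalized counts in the control and HGF libraries of Detroit 562 replicate 1 and 135 and 48.8 in those of replicate 3. In FaDu it had 299.9 and 249 in replicate 1 and 729 and 592 in replicate 3. OAS2 differed by -0.79 ± 0.18 in Detroit 562, by 1.26 ± 0.13 in FaDu and by 0.31 ± 0.14 (adjusted p = 0.31) in SCC-9. MX1, an antiviral GTPase, differed by -0.93 ± 0.16 in Detroit 562, against 0.96 ± 0.13 in FaDu and 0.77 ± 0.14 in SCC-9. IFI44L (0.43 ± 0.14) and IFI27 (0.85 ± 0.37, at most 48.8 normalized counts) were called higher in Detroit 562. IFI44 was also positive there (0.35 ± 0.09, adjusted p = 0.0082), short of the minimum fold change.

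Of 20 interferon-stimulated genes, 18 were called higher and 0 lower in FaDu, 9 higher and 0 lower in SCC-9, and 2 higher and 5 lower in Detroit 562. The median replicate difference was 0.78, 0.52 and -0.16, and over all genes 6.71%, 2.04% and 5.3% were called higher and 5.02%, 1.23% and 9.12% lower. Leaving out single libraries gave 16 to 17 genes in FaDu, 4 to 8 in SCC-9 (4 without control replicate 1 or control replicate 3) and 0 to 3 higher and 2 to 6 lower in Detroit 562. The replicate difference of 15 of the 20 genes differed between the lines, beside 33.6% of all genes.

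Promoter stretches of 5 interferon-stimulated genes are shown as examples of list members that hold the interferon-stimulated response element TTTCNNTTTC, which was searched on both strands and was not used to choose the list. They are from RefSeq (GRCh38.p14), and the capitals mark 1 match on either strand, so that GAAANNGAAA is the same motif read from the opposite strand. They lie at chr14:94110616-94110675 (IFI27, plus strand), chr1:27672251-27672310 (IFI6, minus strand), chr1:78620350-78620409 (IFI44L, plus strand), chr10:89392495-89392554 (IFIT1, plus strand) and chr1:1013365-1013424 (ISG15, plus strand).
IFI27: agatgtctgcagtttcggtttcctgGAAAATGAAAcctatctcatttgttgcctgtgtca
IFI6: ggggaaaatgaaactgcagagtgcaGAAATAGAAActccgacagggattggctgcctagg
IFI44L: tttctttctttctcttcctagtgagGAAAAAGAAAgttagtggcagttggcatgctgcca
IFIT1: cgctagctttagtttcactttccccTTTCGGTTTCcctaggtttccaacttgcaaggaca
ISG15: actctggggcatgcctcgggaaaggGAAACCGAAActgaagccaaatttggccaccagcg
Of the 20 genes, 14 had a promoter entry and 9 of them (64.3%) held the motif and 5 did not, against 3.57% of all 35116 promoters. The 5 genes shown differed in their values. In FaDu, IFI44L differed by 0.65 ± 0.12, IFIT1 by 0.83 ± 0.09 and ISG15 by 0.52 ± 0.06, and in Detroit 562 IFI44L differed by 0.43 ± 0.14 while IFIT1 and ISG15 differed by -0.40 ± 0.13 and -0.43 ± 0.08.

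NRF2 targets fell in Detroit 562 and FaDu and had no called member in SCC-9. AKR1B10, an aldo-keto reductase, had 5657, 4960 and 1282 normalized counts in Detroit 562 control replicates 1, 2 and 3 and 1483, 1505 and 305 in the HGF replicates. Replicate 3 was lowest in both treatments, and replicates 1 and 2 lay close together. It differed by -2.19 ± 0.12 in Detroit 562 and -1.72 ± 0.21 in FaDu (adjusted p = 2.4e-07 and 7.8e-05), and AKR1C2 by -1.27 ± 0.12 and -1.38 ± 0.14. HMOX1, heme oxygenase, fell by 1.80 ± 0.21 on the log2 scale in FaDu, whereas its difference in Detroit 562 was -0.39 ± 0.25 (adjusted p = 0.26).

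Of 16 NRF2 targets, 11 were called lower in Detroit 562 and 10 in FaDu, against 0 in SCC-9, beside 9.12%, 5.02% and 1.23% of all genes, and none was called higher in any line. The median differences were -0.56, -0.53 and 0.08. The replicate difference of all 16 genes differed between the lines, beside 33.6% of all genes. ALDH3A1, an aldehyde dehydrogenase and textbook target of the aryl hydrocarbon receptor, had 40240 and 16130 normalized counts in the control and HGF libraries of Detroit 562 replicate 1 and 9700 and 2461 in those of replicate 3. It differed by -2.34 ± 0.18 in Detroit 562 and -1.55 ± 0.17 in FaDu. In SCC-9, where it had 3.83 to 13.3 normalized counts in 5 libraries, HGF replicate 3 had 59.1, the library with the FaDu traces, and the part of the traces in that value was not tested. The targets of that receptor were mixed. Of 6 tested, 2 were called higher and 2 lower in Detroit 562, 1 and 3 in FaDu, against 1 and 0 in SCC-9. Over all genes, 5.3%, 6.71% and 2.04% were called higher. Leaving out single libraries gave 1 to 2 higher in Detroit 562 and 0 to 1 in SCC-9.

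The antioxidant response element core TGACNNNGC, searched on both strands, was found in 4 of the 13 NRF2 targets with a promoter entry (30.8%) and in 13.3% of all promoters. A pair of these stretches is shown as examples of genes with the motif and unlike replicate differences, from RefSeq (GRCh38.p14) at chr6:83431155-83431213 (ME1, minus strand) and chr12:104215655-104215713 (TXNRD1, plus strand), with the motif in capitals.
ME1: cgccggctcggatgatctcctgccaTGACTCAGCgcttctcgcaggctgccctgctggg
TXNRD1: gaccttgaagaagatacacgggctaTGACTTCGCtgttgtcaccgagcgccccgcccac
ME1, malic enzyme, differed by -0.36 ± 0.07 in Detroit 562 and -0.59 ± 0.07 in FaDu, and TXNRD1, thioredoxin reductase, by -0.05 ± 0.06 (adjusted p = 0.55) and -0.35 ± 0.06 (adjusted p = 0.0013). Neither gene had a called difference in SCC-9, where the values were -0.01 ± 0.08 and 0.03 ± 0.06.

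Some squamous differentiation genes fell in Detroit 562 and FaDu, and others rose in SCC-9. KRT13, a keratin of stratified non-cornifying epithelium, had 10090, 11620 and 2751 normalized counts in FaDu control replicates 1, 2 and 3 and 3965, 6814 and 712 in the HGF replicates, so replicate 3 lay well below both other runs. Its partner keratin KRT4 had 14840 and 4757 in the control and HGF libraries of FaDu replicate 1 and 2423 and 673 in those of replicate 3. KRT13 differed by -2.11 ± 0.18 in FaDu and -1.17 ± 0.18 in Detroit 562, and KRT4 by -2.69 ± 0.19 and -0.72 ± 0.17. TGM1, the transglutaminase that crosslinks the cornified envelope, differed by -0.84 ± 0.14 in Detroit 562 and -0.95 ± 0.12 in FaDu. In bulk libraries, fewer cells of a type and less RNA per cell cannot be told apart.

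The called genes of SCC-9 were higher in replicate 3. KLK7, a protease of the cornified layer, had 569, 992 and 1640 normalized counts in control replicates 1, 2 and 3 and 529, 927 and 1300 in the HGF replicates, and it differed by 1.42 ± 0.12 (adjusted p = 3.4e-05). Replicate 2 lay between the other runs in both treatments. IVL, the envelope protein involucrin, differed by 0.60 ± 0.15 in SCC-9 and by -0.79 ± 0.16 in Detroit 562. S100A9, a calcium-binding protein of activated keratinocytes, differed by -0.57 ± 0.07 in Detroit 562 and -1.57 ± 0.17 in FaDu, against 0.37 ± 0.07 in SCC-9, where the adjusted p was 0.0070 but the fold change was below the minimum.

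Of 26 squamous differentiation genes tested, 2 were called higher and 7 lower in Detroit 562, 0 and 9 in FaDu, against 6 and 0 in SCC-9, with medians of -0.23, -0.50 and 0.54. Over all genes, 5.3% were called higher and 9.12% lower in Detroit 562, 6.71% and 5.02% in FaDu, against 2.04% and 1.23% in SCC-9. The SCC-9 count was 3 without HGF replicate 1 or control replicate 3, and the FaDu median was -0.19 without HGF replicate 3 and -0.75 without control replicate 3. The replicate difference of 14 of the 26 genes differed between the lines, beside 33.6% of all genes. SPRR3, a small proline-rich envelope protein, was a called exception in Detroit 562 with 0.71 ± 0.12. The 9 epithelial markers moved in part with this list, with 2 called lower in Detroit 562, 4 lower in FaDu and 1 higher in SCC-9, the last of which was lost without any single library of replicates 1 and 3. TP63, the master regulator of squamous epithelium, differed by -0.35 ± 0.06, 0.17 ± 0.06 and 0.23 ± 0.06 in the 3 lines, all short of the minimum fold change. Of the 5 endothelial and leukocyte markers with enough reads, 2 were called lower in Detroit 562 and 4 in FaDu, against 0 in SCC-9, and leaving out single libraries gave 0 to 2 in Detroit 562 and 1 to 2 in FaDu. Their summed level in FaDu was 470 and 297 in replicate 1 and 278 and 186 in replicate 3, and its part in the other differences was not tested.

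**Figure D3:**
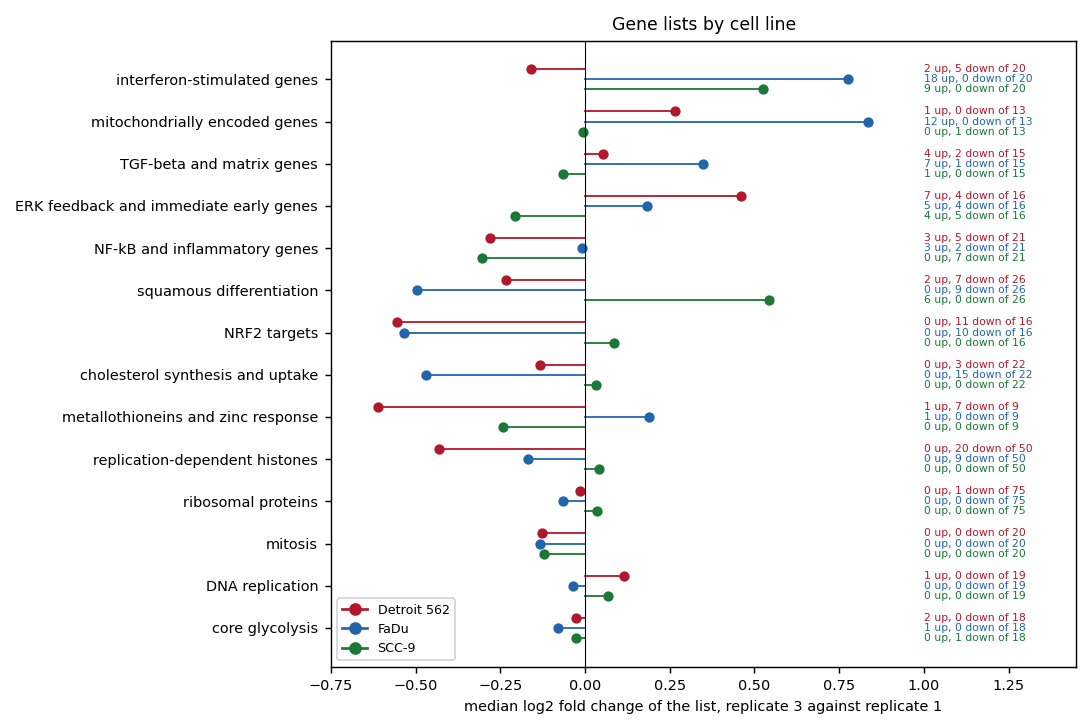
Median replicate 3 minus replicate 1 difference (log2) of gene lists in Detroit 562, FaDu and SCC-9, with the numbers of members called higher and lower. Interferon-stimulated genes have medians of -0.16, 0.78 and 0.52 and NRF2 targets of -0.56, -0.53 and 0.08.

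Genes of sterol synthesis and uptake were lower mainly in FaDu. Of 22 genes, 0 were called higher and 15 lower in FaDu, 0 and 3 in Detroit 562, and 0 and 0 in SCC-9, beside 5.02%, 9.12% and 1.23% of all genes called lower. The Detroit 562 count was 5 without control replicate 1. INSIG1, a sterol-regulated brake on SREBP processing, had 2279 and 1142 normalized counts in the control and HGF libraries of FaDu replicate 1, 2491 and 1781 in replicate 2 and 945 and 565 in replicate 3. Replicate 3 was lowest and replicate 2 highest. The replicate 3 difference from replicate 1 was -1.15 ± 0.10 for INSIG1 and -0.71 ± 0.07 for HMGCS1, an early enzyme of the pathway. SCD, stearoyl-CoA desaturase, differed by -0.89 ± 0.07 in Detroit 562 and -0.84 ± 0.07 in FaDu, against 0.29 ± 0.07 in SCC-9.

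The 13 mitochondrially encoded genes were higher in FaDu replicate 3, with 12 called, beside 6.71% of all genes called higher, and a median of 0.83. Leaving out FaDu control replicate 1 or HGF replicate 3 left 1 call. In Detroit 562, 1 was called higher, and in SCC-9 1 was called lower. Replication-dependent histone genes, whose transcripts lack poly(A) tails and enter a poly(A)-selected library only in small part, were called lower for 20 of 50 genes in Detroit 562 and 9 in FaDu, against 0 in SCC-9, where the shares over all genes were 9.12%, 5.02% and 1.23%. With any single FaDu library of replicates 1 and 3 left out, the FaDu count was 3 to 5 (3 without control replicate 1). The histone share of counts was 0.0122% to 0.0201% in replicate 1 and 0.00934% to 0.0147% in replicate 3. Of 9 metallothionein and zinc response genes, 7 were called lower and 1 higher in Detroit 562 (9.12% and 5.3% of all genes), 0 and 1 in FaDu, against 0 and 0 in SCC-9. The 7 became 4 without HGF replicate 1 or control replicate 3 of Detroit 562 and 5 without either other library.

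Genes of growth and translation are given beside the shares of all genes called higher and lower, which were 5.3% and 9.12% for Detroit 562, 6.71% and 5.02% in FaDu, against 2.04% and 1.23% in SCC-9. None of 20 mitosis genes was called in any line, and of 19 DNA replication genes 1 was called higher in Detroit 562. Of 75 ribosomal protein genes, 1 was called lower in Detroit 562 and 0 in the other lines. Of 18 core glycolysis genes, 2 were called higher in Detroit 562 and 1 in FaDu, against 0 in SCC-9, where 1 was lower. Hexokinase HK2 had 1771 and 2914 normalized counts in the control and HGF libraries of Detroit 562 replicate 1 and 2588 and 4097 in those of replicate 3, a difference of 0.52 ± 0.06 (adjusted p = 6.2e-05). In FaDu the difference was 0.30 ± 0.06 and in SCC-9 -0.14 ± 0.06, neither of them called.

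Some matrix and adhesion genes rose in Detroit 562 and FaDu. ITGA5, a subunit of the fibronectin receptor, had 881 and 1866 normalized counts in the control and HGF libraries of Detroit 562 replicate 1 and 1261 and 2739 in those of replicate 3. In FaDu it had 904 and 1202 in replicate 1 and 1279 and 1804 in replicate 3. ITGA5 differed by 0.54 ± 0.07 in both lines, and in SCC-9 by -0.02 ± 0.06 (adjusted p = 0.96). Tenascin TNC moved in opposite directions, by -0.46 ± 0.08 in Detroit 562 and 0.66 ± 0.10 in FaDu. Of 15 TGF-beta and matrix genes, 4 were called higher and 2 lower in Detroit 562, 7 and 1 in FaDu, against 1 and 0 in SCC-9. Over all genes, 5.3% and 9.12%, 6.71% and 5.02%, and 2.04% and 1.23% were called in the same order, so the lower calls of this list lay near the share of all genes. The lower call in FaDu and the higher call in SCC-9 were lost with any 1 library of the line left out.

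In SCC-9, inflammatory secreted factors were lower in replicate 3. CSF3, the granulocyte colony-stimulating factor, had 2849, 2146 and 895 normalized counts in control replicates 1, 2 and 3 and 4895, 3150 and 1623 in the HGF replicates. Replicate 3 was lowest in both treatments and the fall was 1.63 ± 0.09 on the log2 scale (adjusted p = 3.1e-06). IL6 differed by -0.74 ± 0.12 and the neutrophil chemokine CXCL8 by -0.55 ± 0.11. Of 21 NF-kB and inflammatory genes, 0 were called higher and 7 lower in SCC-9, 3 and 5 in Detroit 562, and 3 and 2 in FaDu. Over all genes, 2.04% and 1.23%, 5.3% and 9.12%, and 6.71% and 5.02% were called in the same order. Leaving out single libraries gave 3 to 6 lower in SCC-9 (3 without control replicate 3 and 4 without HGF replicate 1), 5 higher in Detroit 562 without control replicate 3, and 1 higher in FaDu without either HGF library of these replicates. TNFAIP3, an inhibitor of NF-kB signalling, was called higher in Detroit 562 (1.25 ± 0.14) and FaDu (0.76 ± 0.14), and LCN2, lipocalin 2, lower in both (-0.74 ± 0.08 and -1.66 ± 0.09).

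The genes with the largest differences in each line included receptors and secreted proteins. In Detroit 562, ESM1, an endothelial proteoglycan that carcinoma cells also secrete, had 11.3 and 316 normalized counts in the control and HGF libraries of replicate 1 and 91.8 and 1343 in those of replicate 3, a difference of 2.21 ± 0.22. The interleukin receptors IL1RL1 and IL18R1 differed by 2.02 ± 0.23 and 1.61 ± 0.15, and the oxidase AOX1 by 1.53 ± 0.14. In FaDu, the growth factor-like gene IGFL1 fell by 2.62 ± 0.17 and ceruloplasmin CP by 2.41 ± 0.18 on the log2 scale. CAND2 and SNX32 were also among the largest rises there. CAND2 had 184 and 90.2 normalized counts in the control and HGF libraries of FaDu replicate 3 against 11.4 to 28.2 in the other 4 FaDu libraries, and SNX32 had 203 and 78.6 against 17.1 to 35.3. In Detroit 562 both genes were high in HGF replicate 3 alone, at 389 for CAND2 and 592 for SNX32. The FaDu call was lost under 4 of 13 alternatives for CAND2 and 6 for SNX32.

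In SCC-9, the largest rises were in HSPA6, an inducible heat shock protein (1.87 ± 0.32), the kallikrein protease KLK6 (1.75 ± 0.27), KANK4 (1.61 ± 0.20) and IP6K3 (1.58 ± 0.30). KLK6 had 52.8 and 58.5 normalized counts in the control and HGF libraries of replicate 1 and 117 and 265 in those of replicate 3, the last of which is the library with the FaDu traces. FaDu libraries had 5857 to 13400 normalized counts of KLK6, and the part of the traces in the SCC-9 value was not tested. The largest falls were in TNIP3 (-1.66 ± 0.25), CSF3, COL8A1 (-1.52 ± 0.16) and COL13A1 (-1.45 ± 0.26). COL8A1, a short-chain collagen, had 592 and 562 in replicate 1 and 178 and 224 in replicate 3 of SCC-9, whereas FaDu rose from 50.5 and 112 to 150 and 265 (1.37 ± 0.21).

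Most genes called between the runs were called in 1 line only. In all, 3590 genes were called in at least 1 line, of which 2716 were called in 1 line, 784 in 2 lines and 90 in 3 lines. Over all genes, 5.3% were called higher and 9.12% lower in Detroit 562, 6.71% and 5.02% in FaDu, against 2.04% and 1.23% in SCC-9. The overlap expected from these shares was not computed. Detroit 562 and FaDu shared 237 genes called higher, 379 called lower and 56 called in opposite directions. Among the genes called both in SCC-9 and in another line, most differed in opposite directions. SCC-9 shared 21 higher and 30 lower genes with Detroit 562 against 157 in opposite directions, and 26 and 18 with FaDu against 130. Across 13158 genes the replicate differences correlated at r = 0.449 between Detroit 562 and FaDu, -0.18 between Detroit 562 and SCC-9 and -0.165 between FaDu and SCC-9. The replicate difference itself differed between the lines for 5203 of 15475 genes (33.6%, edgeR's quasi-likelihood test, adjusted p below 0.1).

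In a joint fit of the 3 lines with cell line and treatment as covariates, 76 of 15502 genes were called (0.49%), 24 higher (0.155%) and 52 lower (0.335%) in replicate 3. The fit counted the control and HGF pairs of a line as separate, although they shifted together. Its p-values therefore assume more independent runs than there were. The count of 76 depended on single libraries. It was 2 when any 1 of the 4 Detroit 562 libraries of these replicates was left out, 4 without FaDu control replicate 1 or 3, 6 without FaDu HGF replicate 1 or 3, 350 to 351 without SCC-9 HGF replicate 1 or 3 and 557 without SCC-9 control replicate 1 or 3. Of the 76 genes, 10 were called in the same direction in 3 lines, 49 in 2 lines and 17 in 1 line.

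CXCL1, a chemokine that attracts neutrophils, lost its call under 3 of 26 alternatives, the fewest of the 20 genes named from this fit, of which the others lost it under 9 to 15. It had 2663 and 1750 normalized counts in the control and HGF libraries of Detroit 562 replicate 1 and 1529 and 908 in those of replicate 3. FaDu had 325 and 438 in replicate 1 and 187 and 287 in replicate 3, and SCC-9 had 1770 and 2032 against 1022 and 1125. Replicate 3 was lower in each of the 6 pairs of the same line and treatment, which the rule for naming these genes required. The difference was -0.81 ± 0.06 over the lines (adjusted p = 0.0011), and -0.87 ± 0.08, -0.69 ± 0.11 and -0.82 ± 0.08 in Detroit 562, FaDu and SCC-9.

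The other genes with large falls in all 6 pairs were TMEM37 (-1.25 ± 0.18), the neurotrophin receptor NGFR (-0.97 ± 0.12), CTGF, a matricellular target of YAP (-0.96 ± 0.16), the cytidine deaminase APOBEC3G (-0.94 ± 0.14), TYRP1 (-0.76 ± 0.15), GPR85 (-0.76 ± 0.14), the serine protease HTRA1 (-0.72 ± 0.13) and the tissue plasminogen activator PLAT (-0.67 ± 0.09). NGFR fell from 6327 and 5163 to 3208 and 1963 normalized counts in Detroit 562, from 1031 and 899 to 834 and 448 in FaDu, and from 631 and 640 to 323 and 288 in SCC-9. TMEM37 rested on Detroit 562, since it had at most 22.9 normalized counts in the other lines. TYRP1 was near the floor in SCC-9, with 4.8 and 8.6 in replicate 1 and 4.1 and 5.9 in replicate 3. Its difference there was -0.42 ± 0.47 (adjusted p = 0.83).

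Rises in all 6 pairs were largest for IFI27 (1.43 ± 0.27), the antiviral gene RSAD2 (0.98 ± 0.15), the extracellular matrix protein ECM1 (0.86 ± 0.13), CORO2B (0.76 ± 0.15), SPOCK1 (0.75 ± 0.15), ARRDC4, an arrestin-domain protein induced by glucose (0.75 ± 0.12), SERPINB7 (0.66 ± 0.12), IFI44L (0.60 ± 0.11), MBOAT2 (0.56 ± 0.10) and SHANK2 (0.55 ± 0.11). RSAD2 was near the floor in Detroit 562, with 15.1 and 3.97 normalized counts in replicate 1 and 17.3 and 4.88 in replicate 3. Its difference there was 0.22 ± 0.48 (adjusted p = 0.77). ECM1 rose from 210 and 349 to 447 and 680 normalized counts in Detroit 562, from 54.3 and 72.5 to 105 and 190 in FaDu, and from 267 and 289 to 358 and 400 in SCC-9. The IFI27 rise was largest in FaDu, and its Detroit 562 part (0.85 ± 0.37) rested on 48.8 normalized counts in HGF replicate 3, a library with FaDu traces, against 17.9 to 30.5 in the other 5 libraries of that line, and the part of the traces was not tested. In SCC-9, SHANK2 had 117 and 124 normalized counts in the control and HGF libraries of replicate 1 and 120 and 259 in those of replicate 3. The last is the library with the FaDu traces. FaDu libraries had 3602 to 7156, and the part of the traces in the SCC-9 value was not tested. PRAME, named after its values were seen, was 1 of 6 genes called higher in each line. It was also 1 of the 9 FaDu-restricted genes by which the traces were measured. It had 26 and 4 raw counts in the HGF replicate 3 libraries of SCC-9 and Detroit 562, both with FaDu traces. The other 10 libraries of these lines had 0.

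**Figure D4:**
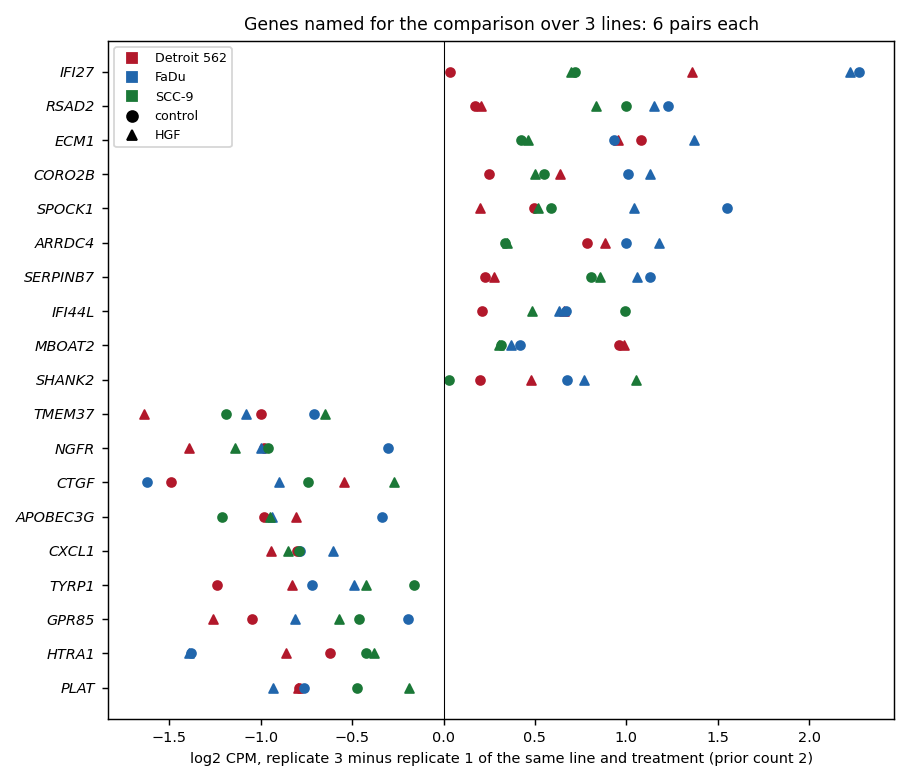
Replicate 3 minus replicate 1 (log2) of the genes with the largest shared differences, with a point for each of the 6 pairs of the same line and treatment. CXCL1 is below 0 in all 6 pairs, with a fitted difference of -0.81 over the lines.

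To test whether the drift between runs resembled or opposed the response to HGF, the replicate difference was set against the HGF response of replicate 2, whose libraries take no part in the replicate difference. In Detroit 562 the drift resembled the HGF response, with r = 0.553 across 13158 genes. In FaDu the correlation was 0.22, and in SCC-9 it was -0.27. These values describe 1 set of libraries per line and carry no test. For the replicate difference of HGF libraries alone, r was 0.388 in Detroit 562 and 0.122 in FaDu, against -0.205 in SCC-9, and for control libraries alone it was 0.606, 0.277 and -0.264.

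The ends of the HGF response showed the same. Of the 200 genes with the highest HGF response in replicate 2 of Detroit 562, 157 (78.5%) had a positive replicate difference with a median of 0.45, and of the 200 with the lowest response 25 (12.5%) did with a median of -0.68. Over all genes of this line 52.0% were positive. In FaDu, 154 of the 200 highest (77.0%) were positive with a median of 0.41, but the 200 lowest were near even, with 96 positive (48.0%) and a median of -0.09. In SCC-9 the order was inverted, with 75 of the 200 highest (37.5%) positive and a median of -0.16, and 142 of the 200 lowest (71.0%) positive and a median of 0.37.

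**Figure D5:**
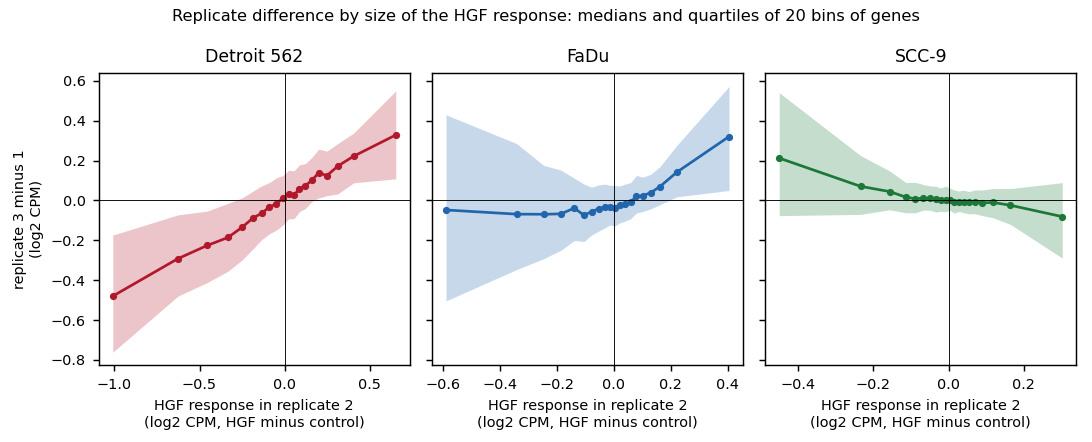
Median replicate difference (log2, replicate 3 minus 1) with its quartiles in 20 bins of genes ordered by the HGF response of replicate 2, for each line. The median goes from -0.48 in the lowest to 0.33 in the highest bin in Detroit 562, from -0.05 to 0.32 in FaDu and from 0.21 to -0.08 in SCC-9.

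The lists of HGF-regulated genes of other lines, which come from separate libraries, showed the same directions. In the blocked fit, which pairs control and HGF libraries by replicate number, HGF changed 3327 genes in Detroit 562 (21.5%; 1104 higher, 7.13%, and 2223 lower, 14.4%), 867 in FaDu (5.6%; 310 higher, 2%, and 557 lower, 3.6%) and 305 in SCC-9 (1.97%; 87 higher, 0.562%, and 218 lower, 1.41%). Over all genes, replicate 3 had 5.3% called higher and 9.12% lower in Detroit 562, 6.71% and 5.02% in FaDu, against 2.04% and 1.23% in SCC-9. Of the 310 genes that HGF raised in FaDu, 123 (39.7%) were called higher and 8 lower in replicate 3 of Detroit 562, and of the 557 that it lowered, 11 were higher and 314 lower (56.4%). In SCC-9 the same 310 genes had 6 higher and 44 lower, and the 557 had 86 higher and 5 lower. Of the 87 genes that HGF raised in SCC-9, 37 were higher and 2 lower in replicate 3 of Detroit 562 and 33 and 5 in FaDu, and of the 218 that it lowered, 5 and 119 in Detroit 562 and 7 and 67 in FaDu. The 1104 genes raised in Detroit 562 had 212 higher and 23 lower in FaDu, against 16 and 63 in SCC-9, and the 2223 lowered had 154 (6.93%, near the share of all genes) and 418 (18.8%) in FaDu, against 174 and 25 in SCC-9.

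Named genes showed both patterns. The replicate difference and the HGF response of the same line use the same libraries, so the values are given side by side only. ESM1 differed by 2.21 between the runs and by 3.97 with HGF in Detroit 562, IL1RL1 by 2.02 and 2.55, KRT13 by -1.17 and -2.05, and AKR1B10 by -2.19 and -1.89. SPRY4 differed by 0.85 and 1.80 in FaDu but by -0.74 and 0.88 in SCC-9. The interferon genes of FaDu departed from the HGF response, with 2.60 and -0.21 for IFI6 and 2.25 and -0.24 for IFI27. TNFAIP2, a tumor necrosis factor-induced gene, was named by the study as regulated under HGF in all 3 lines. It differed by -0.69 and -0.73 in Detroit 562, -0.64 and -0.65 in FaDu, against 0.21 and -0.72 in SCC-9. Of the 12 genes listed as named by the study for HGF, 2 were higher and 6 lower between runs in Detroit 562. The counts were 1 and 5 in FaDu, against 1 and 0 in SCC-9. Over all genes, the shares were 5.3% and 9.12%, 6.71% and 5.02%, and 2.04% and 1.23% in the same order. In FaDu the counts were 0 and 2 without control replicate 1 or control replicate 3, and 0 and 5 or 6 without an HGF library of these replicates.

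Replicate 2 lay at different places between the other runs in the 3 lines. In Detroit 562 replicate 3 stood apart, with 21 genes called between replicates 2 and 1 (0.136%) and 1615 between 3 and 2 (10.4%). In FaDu all runs differed, with 879 (5.68%) and 2164 genes (14%), and in SCC-9 145 (0.937%) and 182 genes (1.18%) were called. The FOS fall in Detroit 562 and FaDu was a property of replicate 1, since replicate 2 lay with replicate 3, whereas AKR1B10 in Detroit 562 and IFI6 in FaDu set replicate 3 apart. Of the squared deviations from the gene means among the 6 libraries of a line, summed over 13158 genes, the replicate number, with 2 degrees of freedom, took 33.1% and treatment, with 1, took 55.4% in Detroit 562, 61.0% and 24.2% in FaDu, against 52.8% and 26.3% in SCC-9. The contrast of replicate 3 with replicate 1, with 1 degree of freedom like treatment, took 24.1% in Detroit 562 and 32.3% in FaDu, against 33.6% in SCC-9.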

How the data were processed

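The authors deposited raw counts per gene, whole numbers without normalization. Per the labels and the study, stranded poly(A) libraries were trimmed with Cutadapt, aligned with STAR 2.5.2b to GRCh38 with GENCODE annotation and counted with bedtools, each read for every gene it overlapped on its strand, so overlapping genes on 1 strand share reads. The table holds 19901 genes.

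The main tests were made with edgeR 4.0.16 in R 4.3.3 (filterByExpr, TMM, quasi-likelihood test) with p-values adjusted by Benjamini-Hochberg over all tested genes, and DESeq2 1.42.0 served as an alternative. Calls needed an adjusted p below 0.1 and a log2 difference of 0.4 or more in size. The standard error is the absolute log2 fold change divided by the square root of F. The 3 lines together were fitted on the 12 libraries of replicates 1 and 3 with 6 groups of line and treatment and the replicate number. Each line was fitted on all 18 libraries with replicate and HGF terms within each line. Differences between lines were tested with an F test over both contrasts between lines (adjusted p below 0.1). Correlations used log2 CPM of TMM-scaled libraries with a prior count of 2.

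Replicate numbers pair the libraries: across genes, deviations of same-numbered control and HGF libraries had correlations of 0.409, 0.323 and 0.602 (Detroit 562), 0.534, 0.587 and 0.683 (FaDu), and 0.525, 0.36 and 0.413 (SCC-9). In Detroit 562, control replicate 1 also correlated with HGF replicate 2 at 0.326, so numbers 1 and 2 were not clearly separated there. The other correlations of unlike numbers were at most 0.206. No libraries were duplicates of each other.

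Genes named were the 10 largest rises and 10 largest falls over the lines with a mean of at least 50 normalized counts and 1 direction in all 6 pairs, and the 4 largest rises and falls per line in both pairs, leaving out sex-specific genes and genes without a symbol. List members were named beside their list. Some genes of the lists and of this rule are not reported here. Members and lists were chosen with earlier results of these data known. The fits were tested on simulated data.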

Additional observations from a re-analysis of the deposited data

Results flagged for a closer look

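The replicate difference was not the same in the 3 lines for 5203 genes by edgeR's quasi-likelihood test of the difference between lines (adjusted p below 0.1). Among the named genes of Detroit 562, the adjusted p of this test was 1.01e-06 for FOS, 2.17e-07 for FOSB, 1.45e-06 for EGR1, 0.00184 for ALDH3A1, 0.000336 for ESM1, 0.0238 for IL1RL1, 0.00245 for IL18R1 and 8.93e-06 for AOX1. FOS, FOSB and EGR1 were lower in replicate 3 of Detroit 562 and FaDu and higher in replicate 3 of SCC-9, and AOX1 was higher in Detroit 562 and lower in SCC-9. Among those of FaDu, it was 3.44e-07 for IFI6, 0.000113 for KRT4, 4.52e-06 for IGFL1 and 0.000263 for CP. Among those of SCC-9, it was 0.0186 for HSPA6, 0.00116 for KLK6, 0.00951 for KANK4 and 2.04e-05 for COL8A1, which was lower in SCC-9 and higher in FaDu.

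Of the genes named from the 3 lines together, 9 also differed between lines in size. The adjusted p was 1.89e-05 for IFI27, 0.0107 for ECM1, 0.00182 for SPOCK1, 0.00813 for ARRDC4, 0.00357 for SERPINB7, 0.000138 for MBOAT2, 0.0509 for GPR85, 0.00216 for HTRA1 and 0.0169 for PLAT. The fitted difference had the same sign in each line for these 9 genes, as the naming rule required of their pairs.

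Genes restricted to FaDu in replicates 1 and 2 were present at 2.04% of the FaDu level in SCC-9 HGF replicate 3 and at 0.391% in Detroit 562 HGF replicate 3. The other 10 libraries of these lines had 0.0247% to 0.205%. Of the genes with at least 20 times the level in another line, 67 of 648 were called between runs in Detroit 562 (10.3%) and 109 of 758 in FaDu (14.4%), against 51 of 623 in SCC-9 (8.19%). Over all genes, 14.4%, 11.7% and 3.27% were called.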

How the results depend on the processing

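The counts over the 3 lines together were fragile. The 76 calls became 2 to 557 with 1 library left out, 272 in DESeq2, 213 without a filter, 117 without a minimum fold change, 8 at a stricter limit (adjusted p below 0.05, log2 difference of 1 or more), 518 with all 18 libraries, 128 with additive terms, 0 in control and 1 in HGF libraries alone, 5 without Detroit 562, 12 without FaDu, 1525 without SCC-9, and 13 without genes at least 20 times higher in another line, an alternative added after seeing the data. Without a minimum fold change, 6038 (Detroit 562), 4445 (FaDu) and 817 genes (SCC-9) were called per line, and at the stricter limit 333, 341 and 107. With 1 library left out, Detroit 562 had 1829 to 2446 calls, FaDu 1047 to 1979 (1047 without HGF replicate 3) and SCC-9 128 to 310, and the 5203 genes that differed between lines became 3167 to 6060. The correlation with the HGF response was 0.388 in Detroit 562 and -0.205 in SCC-9 for HGF libraries alone, and -0.164 in SCC-9 for genes with a mean of at least 10. Its sign held under each alternative run. The causes were not tested.

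With libraries paired by the replicate block, the HGF comparison called 3327 (Detroit 562), 867 (FaDu) and 305 genes (SCC-9), against 2766, 4 and 0 without the block (641 genes of SCC-9 at an unadjusted p below 0.05 in edgeR). Named genes kept their direction under each alternative: 272 values lost the call and 553 kept it.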
